A study of Mus musculus with 30 samples.

Results

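Macrophages of regenerating mouse digit tips were followed through 10 genes that mark these cells or their repair functions: Cd68, Cd14, Mrc1, Cd163, Arg1, Lyz2, C1qa, C1qb, Trem2 and Plek. The genes were taken by symbol, as genes known for these roles, and all 10 were found among the 20321 genes of the table and among the 13793 with enough counts to be tested. These members and the marker lists used below were chosen with earlier results of these data known. Counts set beside shares of all genes are therefore descriptive. The samples were digits 3 of the hindlimb of adult male C57Bl/6 mice, 9 to 10 weeks old, without transgene or drug, in which up to 33% of the distal phalanx (P3, the bone of the digit tip) had been cut off. Polyadenylated RNA of the whole P3 was sequenced right after amputation (0 h, 3 mice), after 3, 6, 12 and 24 h, 3 d, 14 d and 21 d (3 mice each) and after 7 d (6 mice). The 0 h digits were amputated too, so no uncut digit was part of the comparison.

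Macrophages are phagocytes that arise from circulating monocytes or live in a tissue as residents. After an injury they take up dead cells and microbes, release cytokines, and later switch toward functions that quiet inflammation and support repair, and removal of macrophages is known to impair regeneration of the digit tip. Osteoclasts, the bone-resorbing cells that remodel the cut phalanx, come from the same precursors and share several of these genes, among them Cd68. In RNA from whole tissue, fewer cells of a type and less RNA per cell cannot be told apart.

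Depth differed between mice: the library with the fewest expected counts had 3167630 of them, the deepest 16277800 and the median mouse 6103690, each to 6 digits. Dates in the sample titles fell in July and August for 16 mice and in November to January for 14. All mice of 3 h and 12 h belonged to the first period and all of 21 d to the second, so that for these times period and time cannot be told apart by mice of both periods. At 7 d, 2 right-foot mice were dated July, and 4 mice, of which 3 were left feet, were dated November. One 7 d mouse (replicate 3, left foot, November) stood apart: 52 genes had a count of 0 in it and at least 20 counts in each of the other mice, against 3 such genes in one 3 h mouse, 1 in one 24 h mouse and 0 in the others. Mrc1 was one of the 52. Replicate 3 of 0 h and replicate 2 of 12 h carry the same animal code and date in their titles, although the methods of the study describe each digit as that of a separate mouse. Epidermal keratinocyte genes made up much of the RNA, with 6 keratinocyte markers summing to 60946 ± 2870 (SD, n = 3) in TPM, the level of a transcript relative to all transcripts of the mouse and corrected for length, at 0 h. The sum was 481 ± 68.6 TPM (SD, n = 3) for 15 pan-macrophage markers.

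To show which letters these genes carry near their starts, the 250 bases upstream of the start were read for 3 of them. These were Cd68, whose mean TPM over the times was highest at 7 d, and Cd163, the member that fell at 21 d. The last was C1qb, a complement gene that passed no test. The sequences are those of RefSeq on GRCm38.p6, written 5′ to 3′ on the strand of the gene, with matches to any of 3 motifs in capitals. The Cd68 stretch lies at chr11:69666171-69666420 on the minus strand, that of Cd163 at chr6:124304401-124304650 on the plus strand and that of C1qb at chr4:136886201-136886450 on the minus strand.
Cd68: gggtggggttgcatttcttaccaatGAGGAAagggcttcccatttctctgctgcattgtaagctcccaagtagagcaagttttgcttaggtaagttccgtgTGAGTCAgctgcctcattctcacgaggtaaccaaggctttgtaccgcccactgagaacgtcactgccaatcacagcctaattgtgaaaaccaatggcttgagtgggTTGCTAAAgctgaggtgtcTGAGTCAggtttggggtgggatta
Cd163: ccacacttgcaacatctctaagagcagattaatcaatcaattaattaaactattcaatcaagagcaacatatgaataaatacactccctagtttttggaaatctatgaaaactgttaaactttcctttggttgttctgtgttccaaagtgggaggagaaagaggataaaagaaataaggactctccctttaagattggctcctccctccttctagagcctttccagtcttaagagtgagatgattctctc
C1qb: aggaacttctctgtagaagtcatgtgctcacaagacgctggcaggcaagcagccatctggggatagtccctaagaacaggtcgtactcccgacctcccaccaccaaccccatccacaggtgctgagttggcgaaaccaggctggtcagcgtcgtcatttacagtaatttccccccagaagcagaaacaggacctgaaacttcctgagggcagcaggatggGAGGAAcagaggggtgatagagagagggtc
The motifs, searched on both strands, were GAGGAA (the core bound by PU.1, the factor that sets myeloid identity), TTGCNNAA (C/EBP) and TGANTCA (AP-1). The Cd68 stretch held 1, 1 and 2 matches, C1qb held a single GAGGAA, and Cd163 held none. Among the 7 members with an entry in the table, GAGGAA was found for 5 (Cd68, Mrc1, C1qb, Trem2 and Plek), TTGCNNAA for 1 (Cd68) and TGANTCA for 2 (Cd68 and Trem2). Over all 32851 promoters of this length, the shares with a match were 23.3%, 9.56% and 6.75%. A match is a stretch of letters and was not tested as a binding site.

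Cd14, which helps toll-like receptor 4 recognise lipopolysaccharide, rose at 24 h and 14 d. Cd163, the haptoglobin-haemoglobin scavenger receptor of resident and anti-inflammatory macrophages, fell at 21 d. Neither the complement genes C1qa and C1qb nor the mannose receptor Mrc1 passed the test at any time. Each later time was tested against the same 3 mice of 0 h with edgeR's quasi-likelihood test in 1 fit of all 30 mice, and p-values were adjusted over all genes by Benjamini-Hochberg with a threshold of 0.05. At 24 h 1 of 10 members was called (0.493% of all genes), at 14 d 1 of 10 (1.61% of all genes) and at 21 d 1 of 10 (1.94% of all genes). None was called at 3 h (0.254% of all genes), 6 h (0.189%), 12 h (0.167%), 3 d (0.551%) or 7 d (2.34%). At an unadjusted p under 0.05, 2 of 10 members passed with edgeR at 3 h (10.9% of all genes), 1 at 6 h (7.24%), 1 at 12 h (7.67%), 2 at 3 d (6.66%) and 3 at 7 d (13.3%). DESeq2's test also called none at those 5 times. Over the time course as a whole, Cd14, Cd163 and Arg1 changed, 3 of 10 members where 9.01% of all genes were called. The adjusted p of the edgeR time-course test was 0.0481 for Cd14, 0.0206 for Cd163 and 0.0114 for Arg1, and it lay between 0.163 (Cd68) and 0.964 (Mrc1) for the other 7. Leaving out 1 mouse at a time, the Cd14 call was lost in 22 of 30 fits (adjusted p up to 0.114), including each fit without a mouse of 0 h, 3 h, 12 h, 21 d or 24 h. The Cd163 call was lost in 3 (adjusted p up to 0.0656, without 12 h replicate 1, 21 d replicate 1 or 21 d replicate 2), and the Arg1 call in 0 of 30.

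Between successive late times no member passed. The edgeR test called 0 of 10 from 12 h to 24 h, where 0% of all genes were called and 7.74% had an unadjusted p under 0.05, and 0 of 10 from 24 h to 3 d (0.0653% of all genes). It called 0 of 10 from 3 d to 7 d (0.0145%), 0 of 10 from 7 d to 14 d (0.435%) and 0 of 10 from 14 d to 21 d, where 0% of all genes were called and 1.96% had an unadjusted p under 0.05. At an unadjusted p under 0.05 the members numbered 2, 0, 1, 3 and 1 in these steps, and the shares of all genes in the 3 steps between 24 h and 14 d were 6.55%, 9.14% and 12.5%. DESeq2's test called Arg1 from 7 d to 14 d and no other member in any step. For all genes, it called 21 from 12 h to 24 h and 5 from 14 d to 21 d. The median log2 fold change of the 10 members against 0 h stayed between -0.44 (6 h) and 0.42 (14 d), where that of all genes tested was -0.01 and 0.00.

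**Figure D1:**
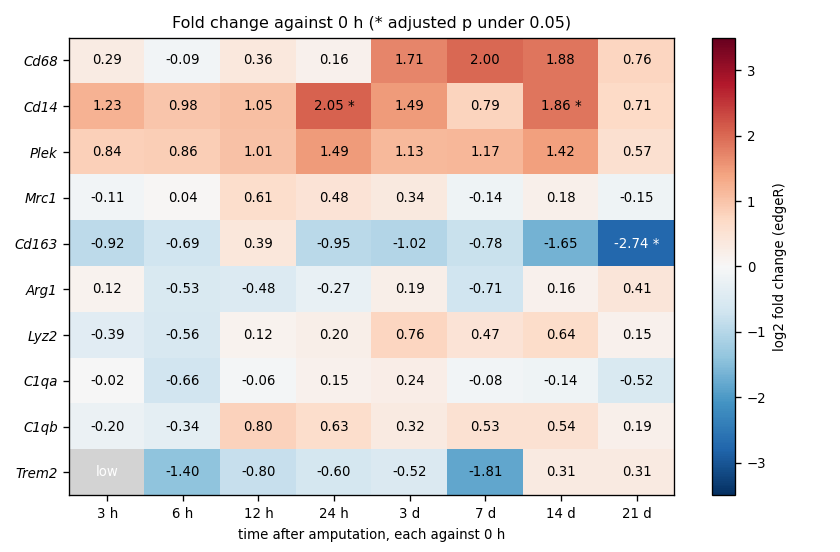
Log2 fold changes of the 10 genes at each later time (columns) against 0 h, from the edgeR fit of 30 mice, in colour and as numbers, with a star where the adjusted p was under 0.05. Stars stand at Cd14 at 24 h (2.05) and 14 d (1.86) and at Cd163 at 21 d (-2.74); Trem2 at 3 h is marked low because no mouse had more than 3 counts there.

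The Cd14 gene lies on chromosome 18. In CPM (counts relative to the library total, normalized by TMM) it had 3.52, 2.45 and 3.36 in the 3 mice of 0 h and 11.7, 12.1 and 15.2 in those of 24 h. All 3 mice of 24 h lay above every 0 h mouse, and the log2 fold change was 2.05 ± 0.48 (SE, adjusted p = 0.044). At 14 d Cd14 had 8.65, 7.00 and 18.3 CPM, again above every 0 h mouse, with a log2 fold change of 1.86 ± 0.48 (SE, adjusted p = 0.0378). The 14 d mice differed from each other more than those of 24 h did. Between these times, Cd14 had 4.72, 13.5 and 8.50 CPM at 3 d, all above the 0 h mice. The log2 fold change at 3 d was 1.49 ± 0.48 (SE, adjusted p = 0.289). At 7 d the 6 mice had 2.70 to 7.77 CPM with a median of 5.16. The log2 fold change at 7 d was 0.79 ± 0.43 (SE, adjusted p = 0.435). For Cd14, none of the steps from 24 h to 3 d, 3 d to 7 d and 7 d to 14 d passed. A fall between the 24 h and 14 d calls was therefore not shown. Already at 3 h, Cd14 had 6.12, 8.27 and 7.59 CPM, all above the 0 h mice, with a log2 fold change of 1.23 ± 0.48 (SE, adjusted p = 0.345).

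Within the July to August mice, mean log2(CPM + 1) of Cd14 was 1.56 higher at 24 h than at 0 h (2 mice against 1), and within the November to January mice it was 2.04 higher (1 against 2). For 14 d the same differences were 1.15 (1 against 1) and 1.65 (2 against 2), so the direction was shared by both periods. The calls rested on few mice: leaving out 1 mouse at a time, the adjusted p at 24 h ran from 0.0269 to 0.298, and the call was lost in 17 of 30 fits, among them each fit without 1 mouse of 0 h or 24 h. At 14 d it ran from 0.0253 to 0.474 and was highest without the mouse at 18.3 CPM, where the log2 fold change was 1.31. That call was lost in 6 of 30 fits. Both calls were lost without any 1 of the mice of 0 h. This includes replicate 3, the digit that shares an animal code with a 12 h digit.

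Of the other genes of lipopolysaccharide recognition, 0 of 8 tested (Tlr4, Ly96, Lbp, Tlr2, Myd88, Ticam1, Irak4 and Traf6) passed the edgeR test against 0 h at any time, with at most 3 (at 7 d) at an unadjusted p under 0.05. Their median log2 fold change was 0.27 at 24 h and 0.14 at 14 d. Tlr4, the receptor itself, had 8.13 ± 1.85 CPM (SD, n = 3) at 0 h and 9.95 ± 6.21 (SD, n = 3) at 24 h. Irak4, a kinase of this route, changed over the time course (adjusted p = 0.0381). Cytokine genes did rise. Il6, at most 1 count per mouse at 0 h, had 46.8 ± 9.07 CPM (SD, n = 3) at 24 h, at least 135-fold higher when 3 counts per library are taken as the floor. Il1b had 0.542 ± 0.642 CPM (SD, n = 3) at 0 h and 23.9 ± 7.95 (SD, n = 3) at 24 h, with a log2 fold change of 5.65 ± 1.05 (SE, adjusted p = 0.00478), and both genes passed at 24 h, 3 d and 7 d. Il6 also passed at 3 h, 6 h and 12 h, and Il1b at 14 d and 21 d. In all, 3 of 9 tested inflammatory activation genes rose at 24 h (Il1b, Il6 and Ptgs2).

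S100a8 and S100a9 of the neutrophil list rose beside Cd14, which neutrophils and keratinocytes can express too. S100a9 had 0.720 ± 0.0802 CPM (SD, n = 3) at 0 h and 31.9 ± 27.5 (SD, n = 3) at 24 h. Summed over the 11 markers of that list, TPM ran from 17.2 to 26.1 at 0 h. It ran from 130 to 270 at 24 h and from 356 to 568 at 14 d. Of the 8 tested, S100a8 and S100a9 were the 2 that passed at each of these later times. Another 2 at 24 h and 3 at 14 d had at most 3 counts in every mouse of that time and of 0 h. Summed TPM of the keratinocyte markers ran from 58509 to 64110 at 0 h and from 39662 to 46306 at 24 h. Their part in the Cd14 result was not tested.

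Cd163 (GRCm38 chr6:124304656-124330527) ran the other way. It had 22.3, 44.2 and 29.9 CPM at 0 h, 60.5, 35.0 and 30.4 at 12 h, and 2.59, 4.18 and 7.75 at 21 d. All 3 mice of 21 d lay below every mouse of 0 h and of 12 h, the time with the highest mean. The log2 fold change at 21 d against 0 h was -2.74 ± 0.60 (SE, adjusted p = 0.00976). At 24 h, 3 d and 14 d too, all mice of the time lay below every 0 h mouse, but none of these changes passed. The log2 fold changes were -0.95, -1.02 and -1.65, with edgeR adjusted p of 0.647, 0.846 and 0.219. How many of all genes separate in this way was not counted, here or for the other members. The 14 d mice spread widely, at 1.94, 16.3 and 11.9 CPM.

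Within the November to January mice, mean log2(CPM + 1) of Cd163 differed by -2.57 between 21 d and 0 h (3 mice against 2), against -2.55 over all mice. The call at 21 d was kept under each of the 10 other settings tried that left out no single mouse, with adjusted p from 0.000156 to 0.0277. It was lost without 0 h replicate 2, 21 d replicate 1 or 21 d replicate 2, where the adjusted p reached 0.128, and was kept without 0 h replicate 3. The log2 fold change ran from -3.23 to -2.44 over the 30 fits that leave out 1 mouse. F13a1, the coagulation factor XIII subunit made by resident macrophages, fell at 21 d as well, from 44.2 ± 18.6 CPM (SD, n = 3) at 0 h to 12.5 ± 1.55 (SD, n = 3), with a log2 fold change of -1.82 ± 0.48 (SE, adjusted p = 0.0396). It was the 1 of 12 tested genes of the resident and scavenging list that fell at 21 d, and none of them rose there. Their median log2 fold change at 21 d was -0.09. Cbr2, a carbonyl reductase of resident macrophages, rose at 3 d (log2 fold change 1.38 ± 0.31, SE, adjusted p = 0.0325) and 7 d (1.19 ± 0.28, SE, adjusted p = 0.0167), so members of this list passed in both directions.

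Erythroid genes also fell late. Hba-a2 and Hbb-bs, which encode globins, and Alas2, which starts haem synthesis in red cells, were 3 of the 5 tested erythroid genes and fell at 21 d. Summed erythroid TPM ran from 219 to 1522 at 0 h and from 33.1 to 44.3 at 21 d. Fibroblast genes moved the other way, with 4 of 6 tested higher at 21 d (Col1a1, Col1a2, Col3a1 and Lum). The part of these shifts in the Cd163 result was not tested.

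Mrc1 (CD206, a receptor for mannose-bearing glycoproteins; chr2:14229392-14332057) passed the test at no time. It had 20.3, 25.3 and 24.2 CPM at 0 h, 48.2, 25.2 and 32.6 at 12 h and 26.9, 16.5 and 19.7 at 21 d. The 12 h and 21 d values bound the order of mean TPM (15.5 and 7.75) without overlapping in TPM, while in CPM 1 mouse of 21 d lay above the lowest of 12 h. The 7 d mice ran from 0 to 54.8 CPM with a median of 18.7, and the 0 belongs to the mouse with 52 absent genes, which had 173 counts of Cd163. The adjusted p over the time course was 0.964.

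Arg1 (arginase 1, which turns arginine into ornithine and is a classical marker of alternative activation; chr10:24915221-24927484) was the most abundant member per length, at a median of 199 TPM over the 30 mice. In CPM it had 167, 163 and 122 at 0 h, 178, 182 and 158 at 3 d, 67.4 to 109 with a median of 98.9 at 7 d, 221, 146 and 140 at 14 d, and 280, 173 and 149 at 21 d. All 6 mice of 7 d lay below every mouse of 0 h, 3 d, 14 d and 21 d in CPM. The level was as low earlier, with medians of 93.4 CPM at 6 h, 96.2 at 12 h and 107 at 24 h. In TPM the highest mouse of 7 d (192) lay above the lowest of 0 h (187). Arg1 changed over the time course (adjusted p = 0.0114), while the single steps did not pass: the log2 fold change was -0.71 ± 0.23 at 7 d against 0 h (SE, adjusted p = 0.106), -0.90 ± 0.23 at 7 d against 3 d (SE, adjusted p = 0.382) and 0.87 ± 0.23 at 14 d against 7 d (SE, adjusted p = 0.0833). The last step passed with DESeq2's test (adjusted p = 0.0377) and with the period as a covariate (adjusted p = 0.0376). The time-course call was lost without the left-foot mice (adjusted p = 0.0639).

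Macrophages are not the only source of Arg1 in skin, and no other gene of the alternative activation list was as abundant. Of 8 tested genes of that list, Il4ra, a subunit of the receptor for interleukins 4 and 13, rose at 24 h, 3 d, 7 d and 21 d, and Tgfb1 rose at 14 d and 21 d. Il4ra had 21.8 ± 2.88 CPM (SD, n = 3) at 0 h and 55.2 ± 5.52 (SD, n = 3) at 24 h, with a log2 fold change of 1.34 ± 0.27 (SE, adjusted p = 0.00914). Tgfb1 had 13.2 ± 2.49 CPM (SD, n = 3) at 0 h and 34.6 ± 5.67 (SD, n = 3) at 14 d, with a log2 fold change of 1.39 ± 0.32 (SE, adjusted p = 0.0185). Retnla, Pdcd1lg2, Il10 and Ccl17 had too few counts to be tested.

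**Figure D2:**
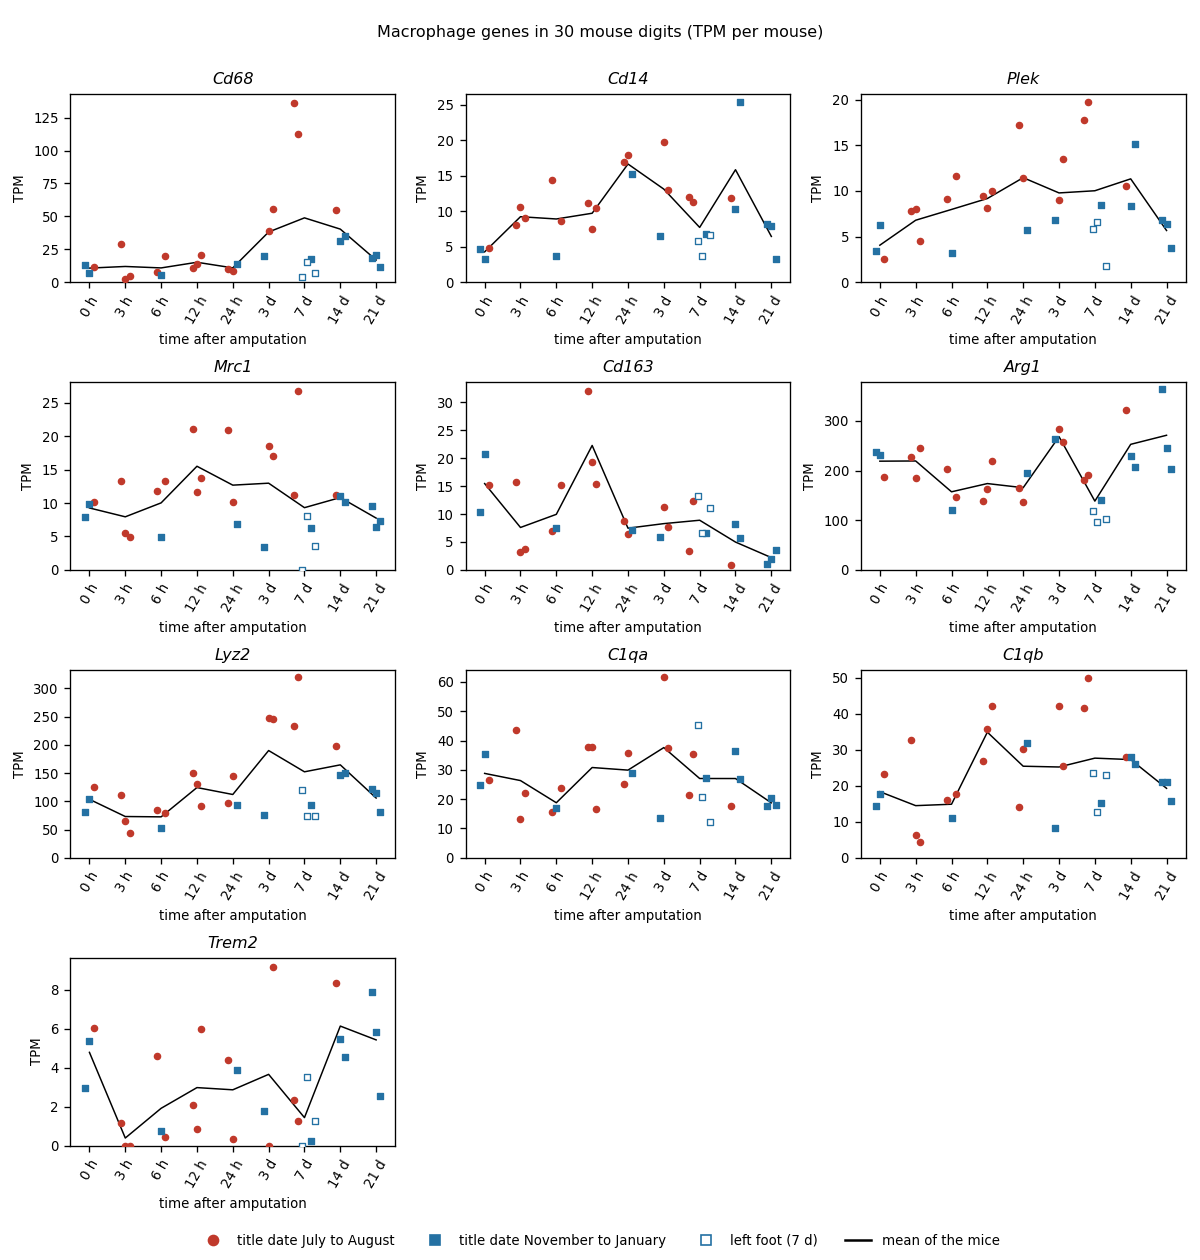
TPM of each gene (vertical axes, from 0) in each of the 30 mice by time after amputation, with the period of the title date as colour and shape, left feet as open squares and the mean of the mice at each time as a line. The 2 July mice at 7 d stand above the 4 November mice for Cd68, Cd14, Plek, Mrc1, Arg1, Lyz2 and C1qb. This is not so for Cd163, C1qa and Trem2. The Arg1 points of 7 d lie under those of 3 d, 14 d and 21 d and overlap with those of 6 h, 12 h and 24 h.

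Cd68 (macrosialin, a lysosomal membrane glycoprotein of phagocytes; chr11:69664213-69666153) had 6.24, 3.41 and 5.12 CPM at 0 h. It had 9.14, 16.7 and 23.1 CPM at 3 d and 25.3, 13.5 and 16.0 at 14 d, each mouse above all those of 0 h. At 7 d the 6 mice ran from 2.22 to 55.9 with a median of 8.01. The 2 July mice had 55.9 and 42.7 CPM, and the 4 November mice had 2.22, 7.30, 8.73 and 3.16, so the groups by date did not overlap and the lower group overlapped with 0 h. The log2 fold change against 0 h was 1.71 ± 0.85 at 3 d (SE, adjusted p = 0.762), 2.0 ± 0.78 at 7 d (SE, adjusted p = 0.219) and 1.88 ± 0.84 at 14 d (SE, adjusted p = 0.48), none past the threshold.

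Within the July to August mice, mean log2(CPM + 1) of Cd68 was 3.03 higher at 7 d than at 0 h (2 mice against 1). Within the November to January mice the difference was 0.02 (4 against 2). The difference between periods was tested as an interaction of time and period over the 6 times that hold mice of both periods (21 mice). It called 0 members, where 0.877% of all genes were called, with 4 of 10 members and 12.9% of all genes at an unadjusted p under 0.05 in this edgeR test, and the lowest adjusted p was that of Cd68 (0.0793). Without the 3 left-foot mice, Cd68 passed at 7 d with a log2 fold change of 2.88 (adjusted p = 0.0146) and so did Plek with 1.74 (adjusted p = 0.0167). Foot and date overlap in these mice, since all 3 left feet were dated November, and cannot be told apart. The single right foot of November had 8.73 CPM of Cd68, and 1 mouse is too few to separate foot from date. With the period as a covariate, the time-course test called 5 members, with Cd68 (adjusted p = 0.0344) and Lyz2 (adjusted p = 0.00836) added. Without the left-foot mice it called Cd68 (adjusted p = 0.00509), Lyz2 (adjusted p = 0.0441) and Cd163 (adjusted p = 0.0194), while Cd14 (adjusted p = 0.0600) and Arg1 did not pass.

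Several genes of osteoclasts and of the macrophage lineage stood at their highest in the same 2 July mice, although Ocstamp, an osteoclast fusion gene, was highest in replicate 3, a November mouse (40.4 CPM against 30.6 and 21.3 in July). Acp5, which encodes tartrate-resistant acid phosphatase of osteoclasts, had 585 and 556 CPM in them and 98.2 to 182 in the 4 others. Csf1r, the receptor for the growth factor of macrophages and osteoclast precursors, had 198 and 172 CPM against 37.6 to 61.8. Emr1 (F4/80), which osteoclasts lack, had 4.92 and 16.0 CPM against 1.67 to 3.64. Its counts were low, at 19 and 95 in the July mice and 13 to 23 in the others, so only replicate 2 stood apart. Ctsk, the collagen-degrading protease cathepsin K of osteoclasts, was closer between the dates, with 1316 and 1151 CPM in the July mice and 567 to 1095 in the others. Over the osteoclast list, 8 of 9 tested genes rose at 7 d (Acp5, Ctsk, Oscar, Dcstamp, Mmp9, Atp6v0d2, Itgb3 and Nfatc1), with a median log2 fold change of 4.25, and the summed TPM ran from 101 to 164 at 0 h and from 1521 to 5140 at 7 d. Calcr, another osteoclast gene, had at most 5 counts in any 7 d mouse. The part of osteoclasts in the Cd68 values was not tested.

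**Figure D3:**
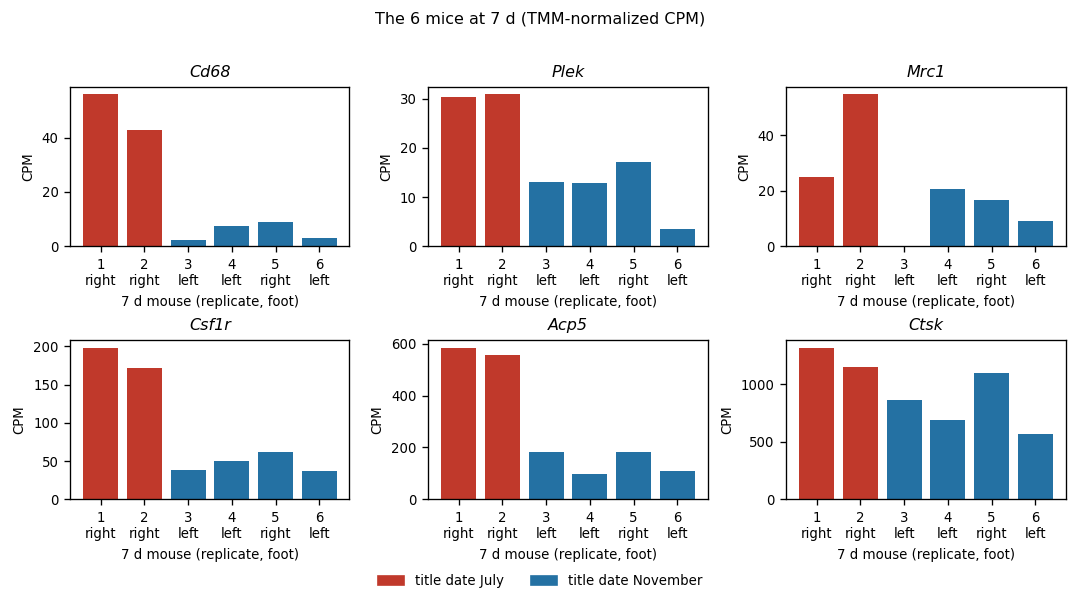
CPM (bars, from 0) of Cd68, Plek, Mrc1, Csf1r, Acp5 and Ctsk in the 6 mice of 7 d, by replicate number and foot, with July mice in red and November mice in blue. The July mice had the highest bars of each gene (for Cd68 55.9 and 42.7 CPM), and Mrc1 had no counts in replicate 3.

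Of the 15 pan-macrophage genes, 3 rose at 7 d: Csf1r (log2 fold change 1.99 ± 0.48, SE, adjusted p = 0.0194), Sirpa (0.92 ± 0.23, SE, adjusted p = 0.0244) and Spi1, which encodes PU.1 (3.61 ± 0.80, SE, adjusted p = 0.0104). At 14 d 1 rose, the Fc receptor chain Fcer1g (2.32 ± 0.61, SE, adjusted p = 0.0438), and at the other times none passed. The median log2 fold change of the 15 genes was 1.09 at 3 d, 0.92 at 7 d, 0.88 at 14 d and 0.22 at 21 d, where that of all genes was within 0.02 of 0. Of the monocyte list, Ccl7, a chemokine that recruits monocytes, was the 1 of 9 tested genes that rose at 7 d (log2 fold change 3.70 ± 0.76, SE, adjusted p = 0.00557), and it also rose at 14 d (3.03 ± 0.79, SE, adjusted p = 0.0435).

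**Figure D4:**
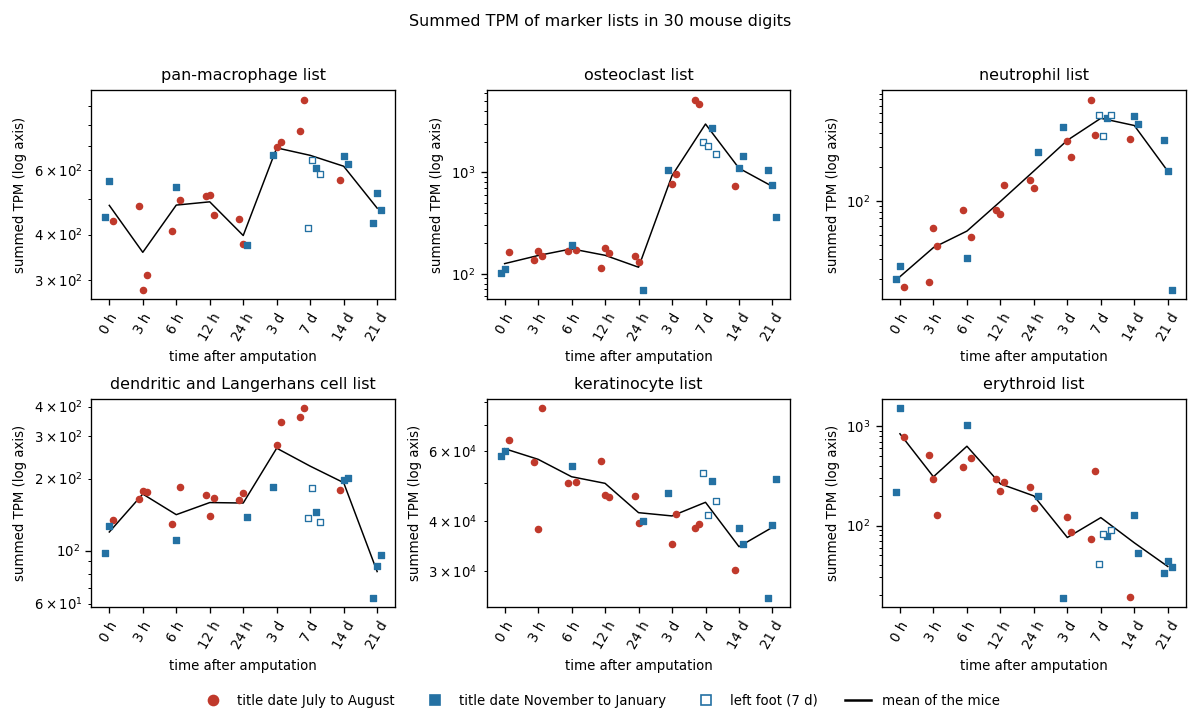
Summed TPM (logarithmic vertical axes) of 6 marker lists in each of the 30 mice by time after amputation, with period and foot marked and the mean at each time as a line. The osteoclast sum ran from 101 to 164 at 0 h and from 1521 to 5140 at 7 d, while the pan-macrophage sum had means of 481 at 0 h and 660 at 7 d.

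Lyz2 (lysozyme of macrophages and neutrophils; chr10:117277331-117282321) had 49.0, 62.4 and 69.8 CPM at 0 h, 44.2, 135 and 129 at 3 d, 43.8 to 153 with a median of 70.2 at 7 d, and 116, 80.1 and 86.1 at 14 d. All 3 mice of 14 d lay above every 0 h mouse, and the log2 fold change was 0.64 ± 0.39 (SE, adjusted p = 0.751). As for Cd68, the 2 July mice of 7 d were the highest, at 121 and 153 CPM. Of the 65-base stretches of the Lyz2 transcript, 8.23% also occur in Lyz1, its neighbour and close copy, so a small share of its reads could have been split between the 2.

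Plek (pleckstrin, a protein kinase C substrate of platelets and leukocytes; chr11:16971206-17052381) had 6.72, 12.3 and 4.64 CPM at 0 h and 31.5, 20.2 and 15.0 at 24 h. It was above every 0 h mouse at 24 h and at 14 d (20.1, 14.9 and 28.7 CPM) but did not pass, with log2 fold changes of 1.49 ± 0.51 (SE, adjusted p = 0.295) and 1.42 ± 0.51 (SE, adjusted p = 0.248). At 7 d the July mice had 30.3 and 30.9 CPM and the November mice 3.48 to 17.2. None of the 3 platelet genes tested (of 6) passed at any time with edgeR, with at most 1 (at 12 h) at an unadjusted p under 0.05, and their median log2 fold change was -0.48 at 24 h. Plek overlaps 199 exonic bases of Cnrip1 on the opposite strand, and how the counting treated strand was not given in the sources used here.

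C1qa and C1qb encode chains of the complement component C1q, which tissue macrophages make and which tags dying cells for uptake. C1qa (chr4:136895917-136898803) had 12.2, 17.4 and 12.0 CPM at 0 h, 6.49, 27.6 and 16.0 at 3 d and 9.54, 10.1 and 9.23 at 21 d. All 3 mice of 21 d lay below every 0 h mouse by a small margin, with a log2 fold change of -0.52 ± 0.46 (SE, adjusted p = 0.955). C1qb (chr4:136880129-136886187) had 7.36, 9.06 and 11.0 CPM at 0 h, 12.3, 15.4 and 19.9 at 12 h, and 14.0, 13.1 and 12.8 at 14 d. The 12 h and 14 d mice lay above every 0 h mouse, with log2 fold changes of 0.80 ± 0.53 (SE, adjusted p = 0.751) and 0.54 ± 0.53 (SE, adjusted p = 0.931). The adjusted p over the time course was 0.797 for C1qa and 0.623 for C1qb.

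Trem2 (a lipid-sensing receptor of macrophages and osteoclast precursors; chr17:48346401-48354147) was the scarcest member, at a median of 2.44 TPM, with at most 48 counts in a mouse and 0 counts in 4 mice. It had 19, 26 and 18 counts at 0 h, 3, 0 and 0 at 3 h and 23, 25 and 26 at 14 d. With no 3 h mouse above 3 counts, the level there was at least 3.03-fold lower than at 0 h when 3 counts per library are taken as the floor, and the edgeR test did not pass (adjusted p = 0.378). At 7 d the 6 mice had 0 to 11 counts with a median of 3.5. The 14 d mice (2.25 to 4.06 CPM) lay above every 7 d mouse (0 to 1.75 CPM), with a log2 fold change of 2.1 ± 0.95 (SE, adjusted p = 0.357).

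Among 15 genes of lipid handling and lysosomes, which Trem2-bearing macrophages use, Spp1 (osteopontin, also made by osteoclasts and osteoblasts) rose at 3 d, 7 d and 21 d. It had 84.7 ± 17.7 CPM (SD, n = 3) at 0 h and 675 ± 318 (SD, n = 6) at 7 d, with a log2 fold change of 2.99 ± 0.37 (SE, adjusted p = 1.32e-05). It fell from 7 d to 14 d by 1.60 on the log2 scale (adjusted p = 0.0267). Lipa, the acid lipase of lysosomes, rose at 14 d (log2 fold change 1.19 ± 0.29, SE, adjusted p = 0.0232), and over the time course Gpnmb, Lpl and Lgals3 changed too, 5 of 15 in all. The list's median log2 fold change was 0.38 at 3 d and 0.46 at 7 d.

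Per length, the members covered a wide range. The order of median TPM over the 30 mice was Arg1 (199), Lyz2 (107), C1qa (24.9), C1qb (23.1), Cd68 (14.6), Mrc1 (10.1), Cd14 (8.81), Plek (8.05), Cd163 (7.67) and Trem2 (2.44). The mean TPM of a member was highest at 12 h for Mrc1, Cd163 and C1qb, at 24 h for Cd14 and Plek, at 3 d for Lyz2 and C1qa, at 7 d for Cd68, at 14 d for Trem2 and at 21 d for Arg1. Ordered by mean TPM, the mice of neighbouring times overlapped in all 8 neighbour pairs of every member. The highest and lowest times themselves did not overlap for Cd14 (24 h, 16.7 TPM, and 0 h, 4.27 TPM), Mrc1, Cd163 (12 h, 22.3 TPM, and 21 d, 2.21 TPM), Arg1 (21 d, 271 TPM, and 7 d, 138 TPM) and Trem2, and did so for the other 5. The highest and lowest times likewise did not overlap for 62.9% of all genes tested, so 5 of 10 was not above the background. These extremes were picked by their means and were not tested.

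Members also differed in which genes followed them from mouse to mouse. Likeness was the Pearson r of log2(CPM + 1) over the 30 mice, which share time, depth and date, and 10848 genes with at least 5 CPM on average were compared. Cd163 was followed most closely by Scara5, a ferritin receptor of stromal cells (r = 0.91, Spearman rho = 0.92), then by Gsn (0.85) and Tnxb (0.82). Cd68 and Lyz2 had the same closest gene, the lysosomal protease gene Ctss (0.86 and 0.85), and Cd68 was next followed by Laptm5 and Dock10. Cd14 was followed by Uqcr10 (0.78), Plek by Gp49a (0.73), C1qb by Hip1 (0.75), Arg1 by Tmem234 (0.75), Trem2 by Lbh (0.71) and C1qa by Cd34 (0.67). For Mrc1, Dab2 (0.90), Dscr3 (0.89) and Plagl1 (0.88) came first, but Dscr3 and Plagl1 were also at 0 in the 7 d mouse where Mrc1 was. Without that mouse these 3 correlations were 0.73, 0.69 and 0.64, and the closest gene was Rtel1 (0.77). Without it the closest gene also became Eng (0.80) for Plek, Ap3s1 (0.78) for Cd14 and Cat (0.70) for C1qa. Among members, the closest pairs were Lyz2 with C1qb (0.76), Cd68 with Lyz2 (0.74) and Cd14 with Plek (0.63).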

How the data were processed

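RNA of 30 digits was sequenced by LM-Seq, a ligation-based protocol for polyadenylated RNA. The authors mapped reads with Bowtie to Ensembl mouse transcripts and estimated gene levels with RSEM 1.2.3 after base calling with CASAVA 1.8.2. They deposited expected counts per gene and mouse, not normalized, and TPM per gene and mouse, relative to all transcripts of that mouse. Averages per time point, a signal of TPM scaled across mice by median-by-ratio that the authors deposited as well, were not used. Expected counts were rounded to whole numbers (78.1% already were). Multimapping reads are shared out by RSEM, which matters for close copies such as Lyz2 and Lyz1.

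Samples were grouped by the time point in the labels. Genes were tested in R 4.3.3 with edgeR 4.0.16 (TMM, filterByExpr by time point, quasi-likelihood F-test, all 30 mice, no covariate), which kept 13793 genes with 99.9% of counts. The SE of a log2 fold change was not estimated by the fit but taken as its absolute value divided by the square root of F. Comparisons of each time with 0 h share the 0 h mice. The methods of the study describe separate mice, although the titles of 2 samples share an animal code. Pairs of samples were compared only within a time, and none of these agreed within sampling noise. The 2 samples with a shared code are of different times, so this check did not cover them. Levels are TMM-normalized CPM, or TPM where genes are compared. Where all mice of a time lay above or below every 0 h mouse, the share of all genes with such a separation was not counted. A count of 3 served as floor and covers counting error only. Alternatives were DESeq2 1.42.0 (size factors or its own test), limma 3.58.1 on log2(TPM + 1) and log2(TPM + 0.1), other filters (none, or 10 counts in 3 mice), a threshold of 0.01, period as covariate, fits without left-foot mice or of the compared times only, and each mouse left out. The likeness without one 7 d mouse and the period interaction were chosen after seeing the data.

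Named genes are the 10 members, up to 3 called genes of each marker list at a late time by size of change, markers set beside a member's result, and the 3 genes most like each member. Members and lists were chosen with earlier results of these data known. The tests were checked on simulated data with known changes at 7 d. For 7 d against 0 h, 79.4% of 4-fold and 35% of 2-fold changes were recovered. For the time course the shares were 81.4% and 40%. Changes at times with 3 mice were not simulated. Promoter sequences came from RefSeq and gene positions from the GRCm38 annotation. Plots were drawn with matplotlib 3.10.9 in Python 3.11.15.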

Additional observations from a re-analysis of the deposited data

Results flagged for a closer look

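At 7 d, the log2 CPM of 10 members and the summed log2 TPM of 19 gene lists, 29 measures in all, were looked at for a single mouse that lay apart from the other 5. This was so for 1 of them, the erythroid sum: the gap between the highest mouse and the next took up 0.641 of the whole range, above the critical value of Dixon for 6 mice. Chance flags about 1 in 20 such groups, so 1 of 29 is not more than chance gives. The erythroid sum is not a sum over members, and no member was flagged at 7 d.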

How the results depend on the processing

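Counts of members called were the ones most open to settings, since each rested on 1 to 3 genes. At 24 h against 0 h the count went from 1 to 0 with no filter on low counts, at a threshold of 0.01 and with limma on log2(TPM + 1) or log2(TPM + 0.1). At 14 d it went from 1 to 0 at 0.01 and with both limma fits, and to 2 (Cd68 and Cd14) in a fit of the 2 times alone. At 7 d it went from 0 to 2 (Cd68 and Plek) without left-foot mice. From 7 d to 14 d it went from 0 to 1 (Arg1) with DESeq2's test and with period as covariate. The time-course count went from 3 to 0 at 0.01 and to 5 with period as covariate. Leaving out 1 mouse at a time, it ran from 0 to 1 at 24 h (lost in 17 of 30 fits), 14 d (6 of 30) and 21 d (3 of 30), and from 1 to 4 for the time course, with 1 without 12 h replicate 1, 21 d replicate 1 or 21 d replicate 2. The causes were not tested. Counts at 3 h, 6 h, 12 h and 3 d stayed at 0 under every setting tried. None of the 65 fold changes recomputed (31 of members, 34 of list genes) turned its direction under any setting. Of 35 calls of named list genes, 21 were lost in at least 1 fit that left out a mouse and 18 in at least 1 other setting besides the threshold of 0.01, the most open being Ptgs2 at 24 h (18 of 30), Alas2 at 21 d (14 of 30), Fcer1g at 14 d (13 of 30) and Ccl7 at 14 d (10 of 30). With 3 mice per time and total counts down to 3167630, a member that did not pass may still have changed. No paired analysis was made, since the study describes separate mice collected at each time. Only 2 samples, 0 h replicate 3 and 12 h replicate 2, share an animal code and date in their titles.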
